A study of Rattus norvegicus with 27 samples.

Results

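The genes described here encode adhesion proteins that join the 2 sides of a synapse, namely the neurexins Nrxn2 and Nrxn3, the neuroligins Nlgn1, Nlgn2 and Nlgn3, and the leucine-rich repeat transmembrane proteins Lrrtm1, Lrrtm2, Lrrtm3 and Lrrtm4. They were chosen by symbol, and each of the 9 matched 1 row of a table of 36865 genes. The rows carry NCBI gene IDs, which are 116595 for Nrxn2, 116508 for Nrxn3, 116647 for Nlgn1, 117096 for Nlgn2, 171297 for Nlgn3, 679668 for Lrrtm1, 685472 for Lrrtm2, 294380 for Lrrtm3 and 500219 for Lrrtm4. All 9 were counted in every library, with between 84 reads (Nlgn1 in rat 3) and 9611 reads (Nrxn2). All 9 also belonged to the 11730 rows with a mean of at least 10 reads, over which tests on spread and correlation were read. Tissue of the medial prefrontal cortex (mPFC) came from 27 adult male Wistar rats, 1 library per rat, and poly-A RNA was sequenced as single reads. The rats had passed through a battery of anxiety tests and were killed at rest, straight from the home cage. They form 1 group with no control group, so what follows describes levels, spread between rats and how the genes moved together. Behavioral scores of single rats were not used here. The labels enter learned helplessness as the treatment, whereas the methods of the study describe repeated tests of avoidance in mazes, arenas and light-dark boxes.

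Neurexins sit mainly in the presynaptic membrane and reach across the cleft to bind several families of postsynaptic partners, the neuroligins and LRRTMs among them. Each neurexin gene gives long alpha and short beta forms from separate promoters, with many splice forms of each, and a count per gene sums them all. Neuroligins carry an outer domain related to acetylcholinesterase that binds neurexins and a tail that binds postsynaptic scaffolds. Nlgn1 is known from excitatory synapses, Nlgn2 from inhibitory ones, and Nlgn3 from both. LRRTM proteins are postsynaptic organizers, mostly of excitatory synapses. Lrrtm1 and Lrrtm2 bind neurexins directly, while Lrrtm3 and Lrrtm4 are known for binding the heparan sulfate chains of surface proteoglycans.

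The reads assigned to genes numbered 4907255 in the smallest library and 12771309 in the largest. Library numbers parted the totals, since the 16 libraries numbered up to 31 (first set) held 4907255 to 8568317 reads and the 11 numbered from 32 (second set) held 9404220 to 12771309. What the 2 sets were (a cohort, a run or neither) is not given in the labels, and relations between rats are therefore also given within each set. The methods of the study name 2 cohorts of male Wistar rats but do not tie library numbers to them. Rat 3 stood apart. The summed normalized count of its 10 oligodendrocyte markers was 66330, against 19001 to 45501 in the other rats, and it had the lowest excitatory neuron score (mean z score of 6 markers) of the 27. The summed count of those 6 markers, 35924, was the 7th lowest and lay inside the range of the other rats, 31913 to 46754. Rats 12 and 20 held the most 18S ribosomal RNA, at 19987 and 16900 normalized counts, with the next rat (47) at 5243. Glutamatergic cortical markers were present as the tissue label says, with the vesicular transporter Slc17a7 at 11183 ± 1417 normalized counts (SD, n = 27). Sst and Syp, markers of an interneuron class and of synaptic vesicles, were listed at 0 in every rat, as were some other genes that brain cells use, so nothing was read from zeros. Results were recomputed without rat 3 and, for correlations, without rats 12 and 20.

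Levels are given as normalized counts, reads divided by a size factor for each library. They are not per unit of transcript length, so a level can be compared between rats but not between genes.

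Of the neurexins, Nrxn2 was the steadier between rats. Its normalized count was 4554 in the lowest rat, 5668 at the median and 6844 in the highest, with a mean of 5740 ± 574 (SD, n = 27). Rat 3 was lowest and rat 54 highest. The log2 SD of Nrxn2 over rats was 0.14, and 29.8% of the genes tested had a smaller one. Nrxn3 ran from 573 in rat 3 through a median of 850 to 1092 in rat 22, with a mean of 845 ± 121 (SD, n = 27). Its log2 SD was 0.21, close to the middle of all genes. The ratio of Nrxn3 to Nrxn2 reads within a library, which no scaling can change, was 0.110 in rat 32, 0.147 at the median and 0.201 in rat 22. The rat with the highest Nrxn3 level thus also had the highest ratio.

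The neuroligins differed in how widely they spread. Nlgn1, the neuroligin of excitatory synapses, ran from 128 in rat 3 through a median of 294 to 427 in rat 20 (288 ± 70.0, SD, n = 27), so that the highest rat held 3.32 times the lowest. Its log2 SD of 0.38 was larger than that of 83.6% of genes and became 0.32 without rat 3. Nlgn2, the neuroligin of inhibitory synapses, had 1011 in rat 3, a median of 1928 and 2340 in rat 32 (1924 ± 270, SD, n = 27). Rat 3 lay far below the next rat, which was rat 9 at 1554, and the log2 SD of Nlgn2 fell from 0.24 to 0.15 when rat 3 was left out. Nlgn3, found at synapses of both kinds, had 338 in rat 3, a median of 861 and 1030 in rat 12 (825 ± 142, SD, n = 27). Rat 3 was again well below the next rat (rat 19, at 573), and without it the log2 SD was 0.20 instead of 0.32.

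Among the LRRTM genes, Lrrtm2 was the one that varied most. It had 277 in rat 26, a median of 543 and 773 in rat 12 (542 ± 133, SD, n = 27), a 2.78-fold range. Rat 3, at 286, was next to the lowest. Its log2 SD of 0.39 exceeded that of 84.4% of genes, and leaving out rat 3 changed it little (0.35). Lrrtm1 had 555 in rat 28, a median of 651 and 834 in rat 17 (657 ± 64.3, SD, n = 27). With a log2 SD of 0.14 it was the least variable LRRTM gene. Lrrtm3 had 502 in rat 26, a median of 671 and 821 in rat 20 (655 ± 77.3, SD, n = 27), and its log2 SD was 0.17. Lrrtm4 had 146 in rat 5, a median of 194 and 283 in rat 15 (204 ± 31.4, SD, n = 27), and its log2 SD was 0.21. Rat 26 thus held the lowest values of both Lrrtm2 and Lrrtm3, although its Nrxn2 level of 6603 was among the highest.

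**Figure D1:**
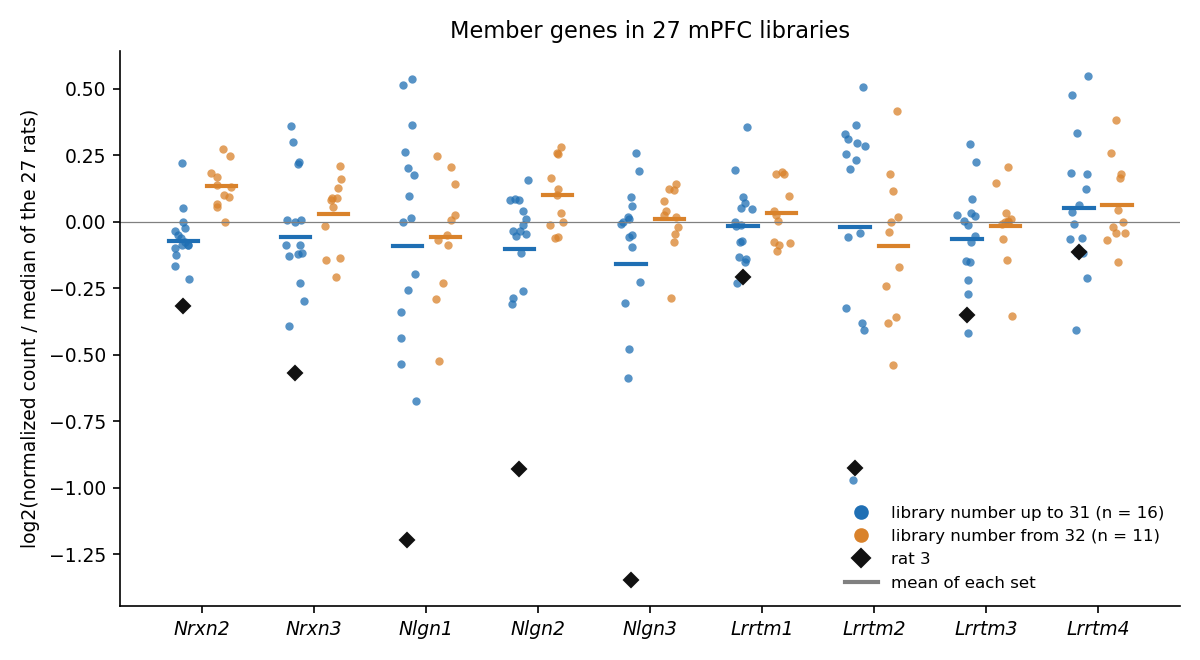
Each point is 1 rat, and the vertical axis gives the log2 of the gene's normalized count over its median in the 27 rats, with libraries numbered up to 31 in blue (n = 16), libraries numbered from 32 in orange (n = 11), and a short line at each set's mean. Rat 3 (black diamond) is lowest for Nrxn2, Nrxn3, Nlgn1, Nlgn2 and Nlgn3, while the points of Nlgn1 and Lrrtm2 are spread widely also without it.

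The spread of all 9 genes was larger than counting error alone would give (chi-square test of dispersion relative to Poisson counts, Benjamini-Hochberg over 11730 genes, with the largest adjusted p of the 9 at 1.23e-14 for Lrrtm4). This holds for 89.8% of all genes tested, so it does not set the adhesion genes apart. Counting error made up 1.79% of the variance of Nrxn2 and 21.1% of that of Lrrtm4, the least counted of the 9. The median log2 SD of the 9 genes was 0.21, beside 0.19 for all genes, and 6 of the 9 were above that value.

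Rat 3 carried the lowest counts of 5 of the 9 genes (Nrxn2, Nrxn3, Nlgn1, Nlgn2 and Nlgn3) and was among the lowest 3 rats for 8. Relative to the median of the other rats, Nlgn3 stood at 39.1%, Nlgn1 at 43.6%, Nlgn2 at 52.2% and Lrrtm2 at 52.3%. Nrxn3 (67.3%), Lrrtm3 (78.4%), Nrxn2 (80.3%), Lrrtm1 (86.6%) and Lrrtm4 (91.2%) were nearer to the other rats. The 3 neuroligins and Lrrtm2 were therefore low in this library by more than the remaining genes. Slc17a7 (7479), Camk2a (2535) and Tbr1 (260), which mark excitatory cortical neurons, were also below every other rat in it, whereas Neurod6 and Nrgn, of the same marker list, were not. Whether tissue composition had a part in the low values of rat 3 was not tested. In RNA from whole tissue, fewer cells of a type and less RNA per cell cannot be told apart.

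The proportion of 2 paralogs within a library ranged as follows. The ratio of reads varied between rats beyond counting error for all 7 pairs examined (chi-square test of homogeneity over 27 libraries, Benjamini-Hochberg over the 7, with the largest adjusted p at 0.00017 for Lrrtm1 over Lrrtm4), for 7 of 7 also without rat 3, and for 5 of 7 within the second set. Of all gene pairs, 90.5% passed the same test at an unadjusted p under 0.05, so 7 of 7 does not set the paralogs apart. The sizes are given as a description. The proportion of Nlgn3 to Nlgn2 moved least. It was 0.334 in rat 3, 0.431 at the median and 0.504 in rat 12, with a log2 SD of 0.14. The ratio of Nlgn1 to Nlgn2, the excitatory to the inhibitory neuroligin, ran from 0.0928 in rat 26 through 0.150 to 0.227 in rat 20, with a log2 SD of 0.31. Lrrtm2 to Lrrtm1 had the widest log2 SD of the 7, at 0.36, and ran from 0.449 in rat 26 through 0.809 to 1.15 in rat 6. Rat 26 was thus the lowest for both of these ratios. Lrrtm3 to Lrrtm4 lay between 2.38 (rat 15) and 4.15 (rat 5) around a median of 3.34, with a log2 SD of 0.18.

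The adhesion genes tended to rise and fall together across rats. Of their 36 pairs, 16 were correlated (Spearman's rho, two-sided permutation test with 100000 permutations, Benjamini-Hochberg over the 36), all 16 in the positive direction. The weakest of these had a rho of 0.469. Of all pairs among the 11730 genes, 10.6% were at least that strong in either direction and 5.66% were so in the positive direction. The median rho of the 36 pairs was 0.392, against -0.0045 for all gene pairs. Without rat 3 the median was 0.334 and 16 pairs were called, 15 of them from the 16 above. Nlgn1 with Nlgn3 was lost (rho 0.405, permutation test, adjusted p = 0.0865), and Nrxn2 with Lrrtm2 was gained as a negative pair (rho -0.476, permutation test, adjusted p = 0.0364). The 15 positive and 1 negative pairs stood beside 6.09% and 5.45% of all gene pairs at least as strong as the weakest called. Rats 12 and 20, which stood out for 18S ribosomal RNA, held the highest values of Nlgn3 and Lrrtm2 (rat 12) and of Nlgn1 and Lrrtm3 (rat 20). Without both the count was 13, the pairs lost being Nrxn3 with Lrrtm3 (rho 0.406), Nlgn1 with Nlgn3 (0.428) and Nlgn1 with Lrrtm1 (0.464), with adjusted p of 0.0977, 0.0781 and 0.0533 by permutation test. No share of all gene pairs is given for that setting. With total-count scaling, 15 of the 16 pairs kept their call. Within the first set 35 of the 36 pairs had a positive rho, with a median of 0.504, and within the second set 27 did, with a median of 0.255. The 16 pairs had the same sign in both sets. The 36 pairs share 9 genes and 27 libraries, and so are not independent of each other.

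The closest pair was Nlgn2 with Nlgn3. Spearman's rho was 0.808 (permutation p = 1e-05, adjusted p = 0.00018) and Pearson's r was 0.920 (permutation p = 1e-05, adjusted p = 0.00012), where 1e-05 is the smallest p that the permutations can give. Leaving out rats 3 and 9, the 2 whose Nlgn2 level was farthest from its median on the log2 scale, gave an r of 0.777. The rho was 0.885 within the first set (permutation p = 2e-05) and 0.636 within the second (permutation p = 0.0405). The relation of the inhibitory neuroligin to Nlgn3 was thus present in both sets and did not rest on rat 3.

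Nlgn1 with Lrrtm2, a pair of postsynaptic neurexin partners known from excitatory synapses, came next. The rho was 0.795 (permutation p = 1e-05, adjusted p = 0.00018) and r was 0.839 (permutation p = 1e-05, adjusted p = 0.00012), or 0.747 without rats 3 and 26. Within the first set rho was 0.894 (permutation p = 1e-05) and within the second 0.718 (permutation p = 0.0158). Nlgn1 followed Lrrtm3 nearly as closely. Here rho was 0.746 (permutation p = 4e-05, adjusted p = 0.00048), r was 0.784 (permutation p = 4e-05, adjusted p = 0.00021), and rho within the sets was 0.776 and 0.855. Without rats 3 and 26, r was 0.704.

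Some pairs passed their test within the first set only. Nrxn3 with Nlgn1 had a rho of 0.722 (permutation p = 8e-05, adjusted p = 0.00058) and an r of 0.762 (permutation p = 4e-05, adjusted p = 0.00021), or 0.615 without rats 3 and 19. Within the first set rho was 0.829 (permutation p = 0.00016), and within the second 0.282 (permutation p = 0.403), so the relation did not hold there by its test. Nrxn2 with Nlgn2 behaved alike, with a rho of 0.654 over all rats (permutation p = 0.00034, adjusted p = 0.00185), an r of 0.719 (permutation p = 1e-05, adjusted p = 0.00012, and 0.755 without rats 3 and 54), and a rho of 0.776 in the first set (permutation p = 0.00067) and 0.282 in the second (permutation p = 0.404). Whether the sets differed in these correlations was not tested. Lrrtm2 with Lrrtm3 was strong in both sets, with a rho of 0.729 in the first and 0.927 in the second (permutation p = 0.00013), 0.656 over all rats (permutation p = 0.00036, adjusted p = 0.00185) and an r of 0.765 (permutation p = 3e-05, adjusted p = 0.00021), which was 0.631 without rats 3 and 26.

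**Figure D2:**
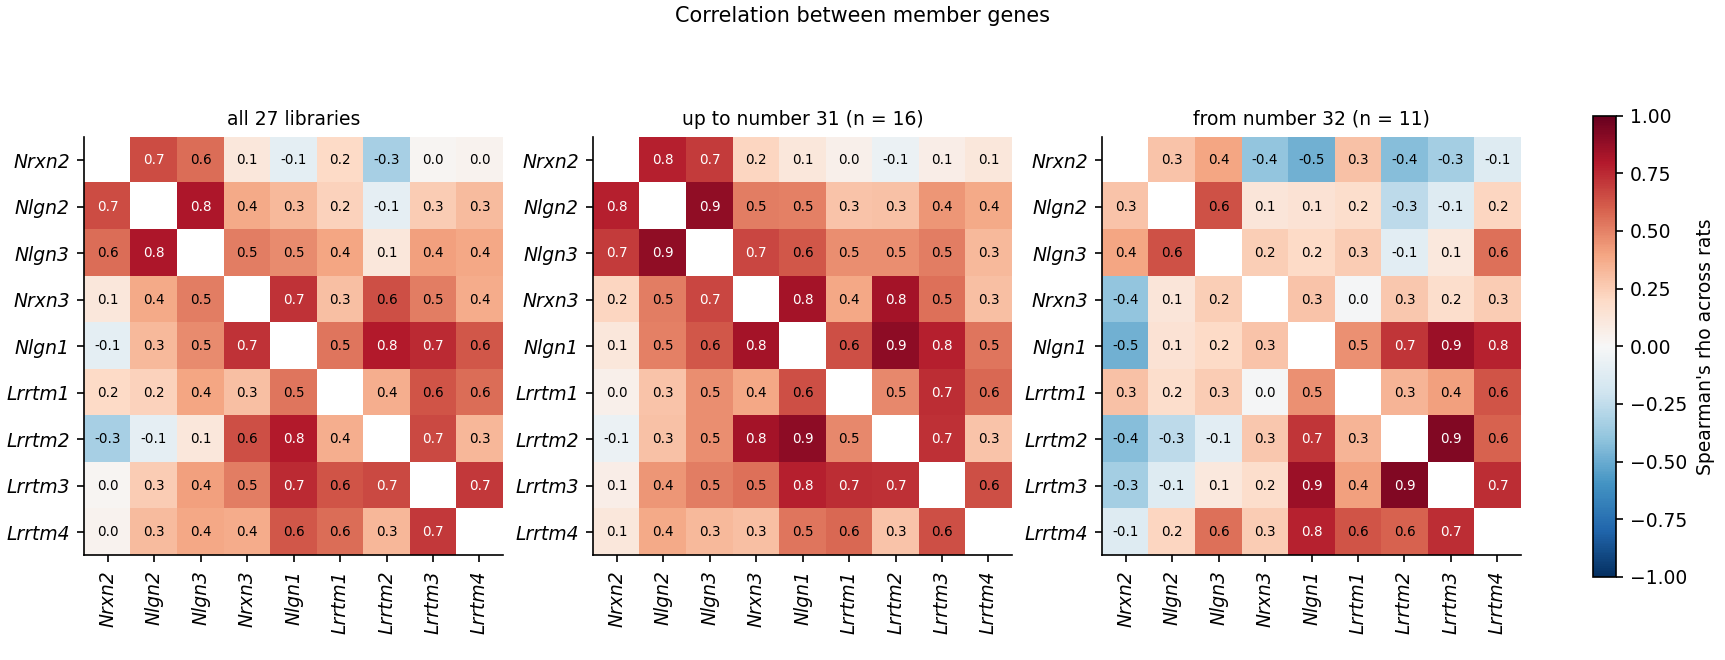
Each square gives Spearman's rho between 2 of the 9 genes over rats, in all 27 libraries (left), in those numbered up to 31 (middle, n = 16) and in those numbered from 32 (right, n = 11), with red for positive and blue for negative rho. Nlgn2 and Nlgn3 form a close pair with Nrxn2 beside them, the remaining 6 genes are mostly red among themselves, and negative squares are those of Nrxn2 and Nlgn2 with Lrrtm2 and of Nrxn2 with Nlgn1 on the left.

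Read as a description, after the values were seen and without a test, the 9 genes fell into 2 loose sets. Among Nrxn2, Nlgn2 and Nlgn3, rho ran from 0.557 to 0.808. Among Nrxn3, Nlgn1 and the 4 LRRTM genes, the 15 values of rho ran from 0.300 to 0.795, with a median of 0.620. Between the sets lay 18 pairs, 2 of them called. Their rho ran from -0.333 to 0.510, with a median of 0.240, which was negative once the excitatory neuron score was taken out. The lowest was that of Nrxn2 with Lrrtm2, at -0.333 (permutation p = 0.0905, adjusted p = 0.141). Its r was -0.231 (permutation p = 0.247, adjusted p = 0.269), or -0.541 without rats 3 and 54, and its rho within the sets was -0.0618 and -0.427, neither passing its test. Without rat 3, however, the rho of -0.476 passed (permutation test, adjusted p = 0.0364). With the library set taken out of both genes it was -0.196 (permutation test, adjusted p = 0.379). In that setting Nlgn1 with Nlgn3 (0.585) and Nrxn3 with Nlgn3 (0.570), between the sets, lay above Nrxn3 with Lrrtm1 (0.231), within one. Nlgn2 with Nlgn3 was at 0.841. Nrxn2 and Lrrtm2 are a presynaptic and a postsynaptic partner that bind each other, and no positive relation between their mRNAs was detected in this tissue.

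**Figure D3:**
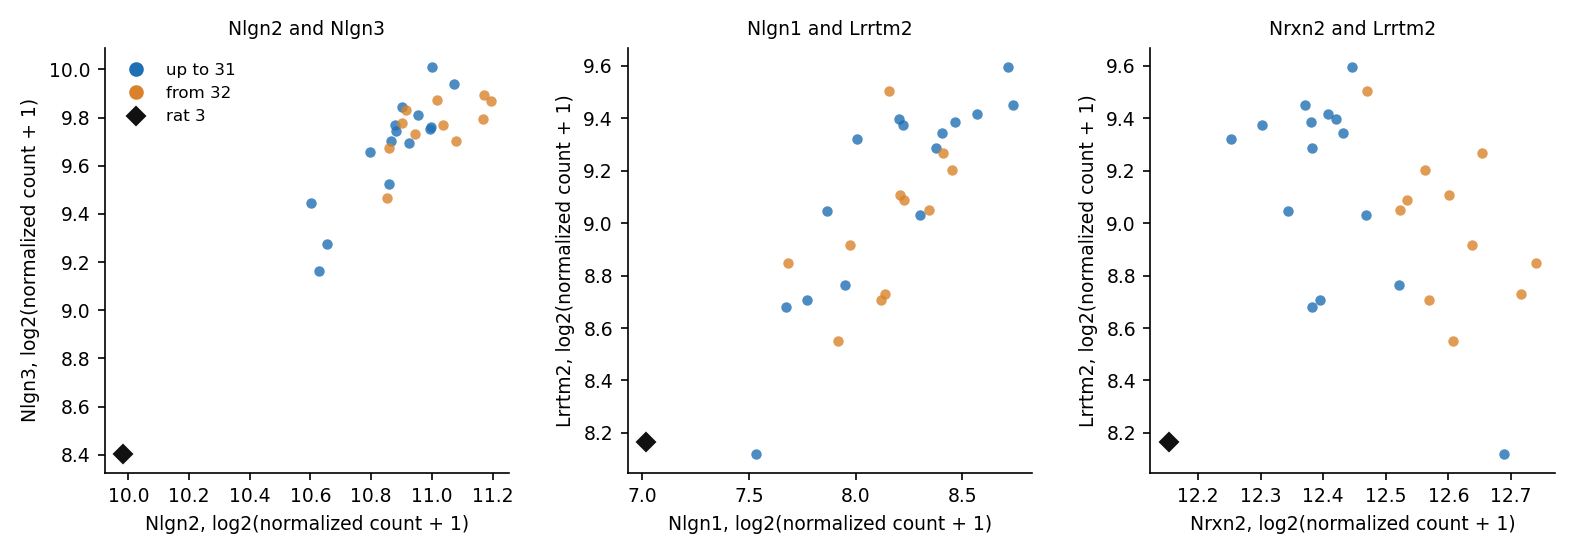
Each point is 1 rat and both axes give log2(normalized count + 1), with libraries numbered up to 31 in blue, those numbered from 32 in orange and rat 3 as a black diamond. Nlgn2 and Nlgn3 (left) and Nlgn1 and Lrrtm2 (middle) rise together in both sets, whereas Nrxn2 and Lrrtm2 (right) do not.

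Sequences before the transcription start were taken from RefSeq (assembly GRCr8) for Nlgn2 and Nlgn3, the closest pair, and for Nlgn1 and Lrrtm3, a pair from the other set, so that the letters in front of genes that moved together can be seen. Of the 9 genes, 7 had a window in the table used. Each line shows the 150 bases before the start, 5′ to 3′ on the strand of the gene, with CG dinucleotides in capitals. The position is chr10:55056579-55056728 (minus strand) for Nlgn2, chrX:70469328-70469477 (plus strand) for Nlgn3, chr2:110930677-110930826 (minus strand) for Nlgn1 and chr20:24514154-24514303 (plus strand) for Lrrtm3.
Nlgn2: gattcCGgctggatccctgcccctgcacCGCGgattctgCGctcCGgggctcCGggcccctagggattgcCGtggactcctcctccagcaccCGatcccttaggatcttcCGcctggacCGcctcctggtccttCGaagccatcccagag
Nlgn3: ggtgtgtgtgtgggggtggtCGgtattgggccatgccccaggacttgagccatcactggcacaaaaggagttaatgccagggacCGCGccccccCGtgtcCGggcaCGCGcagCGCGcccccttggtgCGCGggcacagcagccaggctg
Nlgn1: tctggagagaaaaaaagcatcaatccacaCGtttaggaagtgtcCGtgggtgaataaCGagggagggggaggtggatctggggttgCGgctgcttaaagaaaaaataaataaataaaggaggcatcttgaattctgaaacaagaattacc
Lrrtm3: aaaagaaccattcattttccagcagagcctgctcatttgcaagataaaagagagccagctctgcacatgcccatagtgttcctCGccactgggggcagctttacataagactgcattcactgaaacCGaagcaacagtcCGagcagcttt
The sequences of Nlgn2 and Nlgn3 hold 11 CG dinucleotides each, that of Nlgn1 holds 4 and that of Lrrtm3 holds 3. Counted over 250 bases, Nlgn2 had 20, Nlgn3 11, Nlgn1 10 and Lrrtm3 6, beside a median of 5 over all windows. Nlgn3 and Nlgn1 were thus nearly alike in the longer stretch. Over the 250 bases before the start, the share of G and C was 69.2% for Nlgn2 and 60.0% for Nlgn3, and between 42.4% (Lrrtm2) and 47.6% (Lrrtm4) for Nlgn1 and the LRRTM genes, beside a median of 51.2% over 33469 windows. In the last 150 bases, searched on both strands, GGGCGG (a GC box) was found in none of the 7 and in 26% of all windows, CACGTG (an E box) in none and 3.74%, and TATAAA in none and 8.00%. TGACGTCA, the palindromic cAMP response element, was found in Lrrtm2 alone of the 7 and in 1.36% of all windows. A match or its absence describes these letters only.

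Between the library sets, 1 of the 9 genes differed (edgeR's quasi-likelihood test, Benjamini-Hochberg over 11716 genes). Nrxn2 was 5408 ± 445 normalized counts in the first set (SD, n = 16, range 4554 to 6603) and 6222 ± 356 in the second (SD, n = 11, range 5670 to 6844). The ranges overlapped through rats 24 (5875) and 26 (6603) of the first set. The log2 difference was 0.20 ± 0.04 (SE), with an adjusted p of 0.000801 by edgeR. For comparison, 8.85% of all genes tested were higher in the second set and 9.18% lower. Nlgn2 was higher by 0.19 ± 0.07 (SE) on the log2 scale, which did not pass (edgeR adjusted p = 0.0769) but did without rat 3 (edgeR adjusted p = 0.0380), so that 2 of the 9 were then called, both higher, beside 10.4% of all genes. The other 7 differed by -0.11 to 0.13. A difference between sets cannot be told apart from whatever else parted them.

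Tissue composition was described by 10 scores, each the mean z score of the markers of a cell type. No adhesion gene followed the oligodendrocyte score, made from 10 oligodendrocyte markers (edgeR's quasi-likelihood test, Benjamini-Hochberg over 12027 genes, 0 of 9 called, and 0 by DESeq2's Wald test). Of all genes, 1.65% did. At an unadjusted p under 0.05 by edgeR there were 3 of 9, and the share of all genes at that threshold is not given here. The slope was negative for 7 of the 9, from -0.11 for Nlgn3 to 0.04 for Lrrtm2 per SD of the score. Without rat 3 the slopes ran from -0.09 for Lrrtm4 to 0.13 for Lrrtm2, again without a call. Nlgn3 was then at -0.02, and Nlgn1 (0.03) and Lrrtm3 (0.01) had turned positive. Correlations with the microglia, endothelial, meningeal fibroblast, astrocyte, oligodendrocyte precursor and striatal neuron scores were called for none of the 9 either (permutation tests, Benjamini-Hochberg over 90 relations), the lowest rho being -0.505, for Nrxn2 with the astrocyte score (permutation p = 0.00785, adjusted p = 0.0589). The r of that relation passed (-0.563, permutation p = 0.0022, adjusted p = 0.0180), and was -0.458 without rats 3 and 54.

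The excitatory neuron score, made from 6 cortical markers that include Slc17a7, Camk2a, Neurod6, Tbr1 and Nrgn, did go with the adhesion genes. A test of the score in edgeR, added after the data had been seen, called 9 of 9 in the positive direction, against 12.4% of 12108 genes. Without rat 3, the rat with the lowest score, it called 6 of 9 against 3.87% of genes. Nlgn1 had the steepest slope, with 0.27 ± 0.05 (SE) on the log2 scale per SD of the score (edgeR adjusted p = 0.000466), which was 0.22 ± 0.06 (SE) without rat 3 (adjusted p = 0.0227). Nlgn3 followed at 0.22 ± 0.04 (SE, edgeR adjusted p = 0.000154), or 0.14 ± 0.03 (SE) without rat 3 (adjusted p = 0.0133). Nlgn2, the inhibitory neuroligin, had a slope of 0.16 ± 0.03 (SE, edgeR adjusted p = 0.000472), or 0.10 ± 0.03 (SE) without rat 3 (adjusted p = 0.0404). Nlgn3 and Nlgn2 were thus among the genes whose slope became flatter when that rat was left out.

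The 4 LRRTM genes had slopes of 0.19 ± 0.06 (SE, Lrrtm2, edgeR adjusted p = 0.0264), 0.12 ± 0.04 (SE, Lrrtm4, 0.0186), 0.11 ± 0.03 (SE, Lrrtm3, 0.00231) and 0.08 ± 0.02 (SE, Lrrtm1, 0.00616). Those of Lrrtm1, Lrrtm3 and Lrrtm4 were much the same without rat 3, at 0.09, 0.11 and 0.14, and passed the test again. Nrxn3 (0.12 ± 0.03, SE, edgeR adjusted p = 0.0135) and Nrxn2 (0.08 ± 0.02, SE, edgeR adjusted p = 0.0260) had the call only with rat 3, as did Lrrtm2. With the library set as an added term, the slope of Nrxn2 was 0.05 ± 0.02 (SE, edgeR adjusted p = 0.108) and 8 of the 9 were called. The share of all genes called in that setting is not given here. Without rat 3 the slopes of the 3 genes were 0.08 ± 0.04 (SE, Nrxn3, edgeR adjusted p = 0.211), 0.06 ± 0.03 (SE, Nrxn2, 0.243) and 0.14 ± 0.07 (SE, Lrrtm2, 0.255), still in the positive direction.

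**Figure D4:**
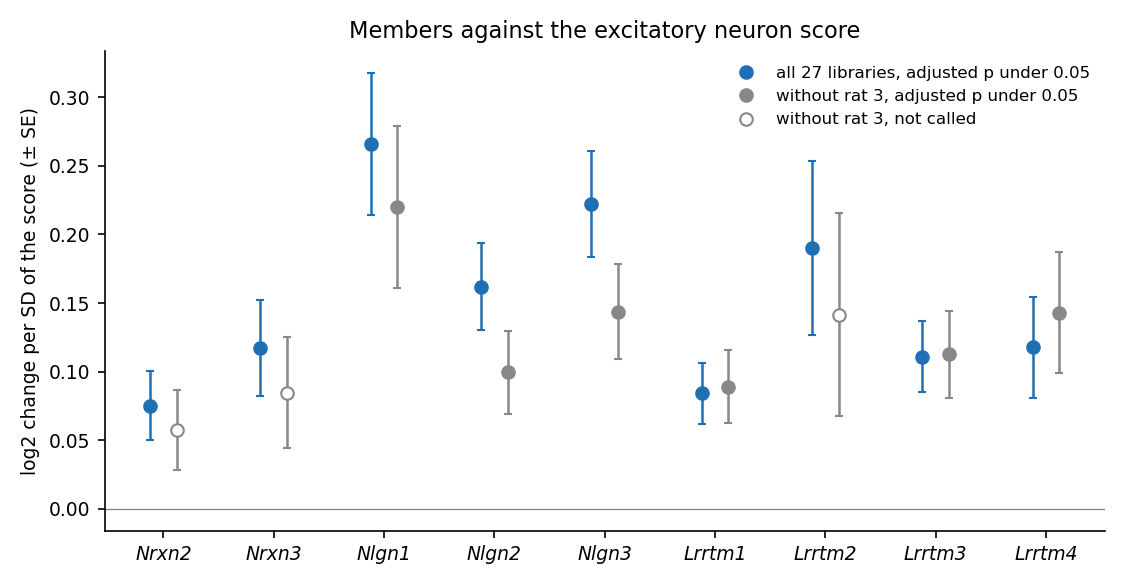
For each gene, the log2 change per SD of the excitatory neuron score with its standard error from edgeR is shown for all 27 libraries (blue) and for the 26 without rat 3 (grey, filled where the adjusted p was under 0.05 and open where not). All slopes are above 0, the steepest being that of Nlgn1, and the open points are Nrxn2, Nrxn3 and Lrrtm2.

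By rank correlation, 11 of the 90 relations between genes and scores were called, all positive and all with neuronal scores. Of these, 6 were with the excitatory neuron score (Nlgn1, Nlgn2, Nlgn3, Lrrtm1, Lrrtm3 and Lrrtm4, with rho from 0.517 to 0.639 and adjusted p from 0.00735 to 0.0484 by permutation test), beside 5.35% of all genes at least that strong in the positive direction. Another 3 were with the pan-neuronal score, which uses genes of all neurons (Lrrtm1 0.659, Lrrtm3 0.668 and Lrrtm4 0.719, beside 4.03% of genes), and 2 with the inhibitory neuron score (Lrrtm1 0.538 and Lrrtm4 0.678, beside 2.58%). Pearson's r of the 6 lay between 0.545 and 0.783, or between 0.498 and 0.729 without the 2 farthest rats of each. Within the second set, Nlgn2 (rho 0.336, permutation p = 0.314) and Nlgn3 (rho 0.227, permutation p = 0.503) did not pass, whereas Nlgn1 (0.700, permutation p = 0.0205), Lrrtm1 (0.736, permutation p = 0.0127) and Lrrtm4 (0.745, permutation p = 0.0116) did. Lrrtm3 (rho 0.555, permutation p = 0.0816) did not pass there either, although its r did (0.799, permutation p = 0.0034). The inhibitory neuroligin Nlgn2 had a rho of 0.0928 with the inhibitory neuron score (adjusted p = 0.878, permutation test), and Sst was not among the markers used for it. Lrrtm4 with the pan-neuronal score was the strongest of the 90, with a rho of 0.719 (permutation p = 5e-05, adjusted p = 0.0045) and an r of 0.689 (permutation p = 5e-05, adjusted p = 0.0021), or 0.768 without rats 15 and 17. Its rho was 0.809 in the first set (permutation p = 0.00027) and 0.609 in the second (permutation p = 0.0526). Without rat 3, 8 of the 90 were called. The 3 lost were Nlgn2 and Nlgn3 with the excitatory neuron score (rho 0.459 and 0.472, permutation test, adjusted p = 0.160 and 0.150) and Lrrtm1 with the inhibitory neuron score (rho 0.496, permutation test, adjusted p = 0.106). The same 3 were lost with TMM scaling (adjusted p = 0.0609, 0.0572 and 0.0609 by permutation test). With total-count scaling 5 of the 90 were called, since Lrrtm1 and Lrrtm3 with the pan-neuronal score and Lrrtm3 with the excitatory neuron score were lost too (adjusted p = 0.0534, 0.0583 and 0.0583 by permutation test).

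When the excitatory neuron score was taken out of both genes of a pair, also an analysis added after the data had been seen, 9 of the 36 pairs were correlated instead of 16, and 7 of the 9 had been among the 16. The 7 were positive, beside 4.61% of all gene pairs at least as strong as the weakest called in that setting, and the 2 others negative, beside 4.06%. The median rho of the 36 was 0.0928 instead of 0.392, while that of all gene pairs was -0.0035 instead of -0.0045. At the rho of 0.469 used above, the share of all gene pairs in the positive direction was 5.60% instead of 5.66%, and 7 of the 36 pairs reached it instead of 16. Nlgn2 with Nlgn3 (0.750) and Nlgn1 with Lrrtm2 (0.699) remained the strongest, each with an adjusted p of 0.0013 by permutation test. Nlgn1 with Lrrtm3 was among the 9 pairs that lost the call (0.420, permutation test, adjusted p = 0.0991). Of the 2 loose sets described above, the median rho was 0.570 among Nrxn2, Nlgn2 and Nlgn3 and 0.363 among the other 6 genes (from -0.112 to 0.699), and between the sets it turned negative, at -0.173 (from -0.682 to 0.458). The 2 negative pairs were Nrxn2 with Lrrtm2 (-0.682, permutation test, adjusted p = 0.00252) and Nrxn2 with Nlgn1 (-0.496, permutation test, adjusted p = 0.0357). With the library set taken out in place of the score, neither was called (rho -0.196 and -0.0433, permutation test, adjusted p = 0.379 and 0.879). Taking out the oligodendrocyte score or the library set instead gave 18 and 17 pairs, for which no shares of all gene pairs are given. How far tissue composition accounts for the pairs was not tested beyond these counts.

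Other genes of the neurexin system and of related synaptic adhesion were followed as 65 listed partners in 7 groups, of which 57 had enough reads and a single row. All 57 spread between rats beyond counting error, as most genes did. With the excitatory neuron score, 35 were higher and 1 lower (edgeR's quasi-likelihood test, adjusted p under 0.05), beside 12.4% and 13.2% of all genes, and without rat 3, 13 were higher and 0 lower, beside 3.87% and 3.64%. Of the secreted neurexin ligands, such as cerebellins, C1q-like proteins and neurexophilins, 2 of 10 were higher, and 1 without rat 3. The LAR-type receptor phosphatases and their ligands had 9 of 11 higher and 3 without rat 3, intracellular binding proteins 10 of 16 and 5, and latrophilins, teneurins and FLRTs 6 of 7 and 1. SynCAMs had 4 of 4 higher and 2 without rat 3, other surface ligands of neurexins 3 of 6 and 1, and the surface regulators of neuroligins 1 of 3 and 0. Differences between the groups were not tested. Cadm3, a SynCAM with 2157 ± 343 normalized counts (SD, n = 27), had a slope of 0.23 ± 0.03 (SE, edgeR adjusted p = 1.21e-06). Clstn1, a calsyntenin, had one of 0.11 ± 0.02 (SE, edgeR adjusted p = 2.72e-05). The single gene in the other direction was Syncrip, an RNA-binding protein on the list of intracellular partners, at -0.32 ± 0.08 (SE, edgeR adjusted p = 0.00474).

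Between the library sets, 6 of the 57 partners were higher and 2 lower in the second set (edgeR, adjusted p under 0.05), beside 8.85% and 9.18% of all genes. Syncrip fell by 1.01 on the log2 scale (SE 0.11, edgeR adjusted p = 4.1e-07) and Cask, a scaffold that binds the neurexin tail, by 0.33 (SE 0.10, edgeR adjusted p = 0.0169). The 6 that were higher were Lrrc4b (0.32), Ptprs (0.28), Igsf21 (0.30), C1ql1 (0.24), C1ql3 (0.27) and Mdga1 (0.38). Of these, Igsf21 and the C1q-like genes encode neurexin ligands, and Mdga1 binds neuroligins on the same cell and keeps neurexin off. With the oligodendrocyte score, 2 of the 57 passed, Nxph3 at 0.25 ± 0.05 (SE, edgeR adjusted p = 0.00254) and Nxph4 at 0.67 ± 0.13 (SE, edgeR adjusted p = 0.00237), both higher and both neurexophilins that bind alpha-neurexins, beside 1.40% of all genes.

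In the RefSeq gene list, 3 of the 4 LRRTM genes lie within a gene for an alpha-catenin, a protein that links cadherins to actin, Lrrtm1 within Ctnna2, Lrrtm2 within Ctnna1 and Lrrtm3 within Ctnna3. Lrrtm4 has no such host. Lrrtm1 and Lrrtm3 lie on the strand opposite to the host, and whether the counting used strand is not given in the sources used here, so reads in overlapping parts cannot be told apart. Ctnna3 was listed at 0 in all rats. Ctnna2 had 1906 ± 128 normalized counts and Ctnna1 928 ± 77.7 (SD, n = 27). Lrrtm1 had a rho of 0.162 with Ctnna2 (permutation p = 0.418, adjusted p = 0.498) and an r of 0.196 (permutation p = 0.328, adjusted p = 0.656), or 0.440 without rats 17 and 28. Lrrtm2 had a rho of 0.135 with Ctnna1 (permutation p = 0.498, adjusted p = 0.498) and an r of -0.0183 (permutation p = 0.926, adjusted p = 0.926), or 0.281 without rats 3 and 26. No relation between guest and host was detected in 27 rats, and within the sets rho ran from -0.164 to 0.203.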

How the data were processed

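The authors deposited 1 table of raw counts, the reads assigned to each gene in each of 27 mPFC libraries, without normalization. The submitters' processing notes name Trimmomatic, STAR and HTSeq, with no versions. Genome build, annotation and strandedness are not given in the sources used here. The methods give a NEBNext kit and the labels a TruSeq one. Close paralogs and overlapping genes may share reads, and genes split over several rows were not used. Another 26 columns of the table were empty.

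The 9 genes and all lists were chosen with earlier results of these data known. Symbols for gene IDs came from RefSeq's list for GRCr8, where Lrrtm1 is spelled LRRTM1, and no transcript lengths were used. Counts were divided by DESeq2 (1.42.0) median-of-ratios size factors and put on the log2(normalized count + 1) scale. Spread was tested per gene by a chi-square dispersion test. Correlations used 100000 two-sided permutations. Library sets and marker scores were tested with edgeR (4.0.16) quasi-likelihood fits after filterByExpr and TMM. Reads carry no molecular identifiers, so these tests and intervals cover counting error as if reads were independent molecules, and p-values measure the spread between these 27 rats. In simulated counts with 200 genes changed by 0.5 on the log2 scale, the fits recovered 157 (library sets), 190 (oligodendrocyte score) and 186 (excitatory neuron score), with 8, 6 and 5 false calls. Over all 27 rats the 9 adhesion genes had smaller changes. These were -0.11 to 0.20 (library sets), -0.11 to 0.04 (oligodendrocyte score) and 0.08 to 0.27 (excitatory neuron score). Recovery of changes of those sizes was not tested. Alternatives were TMM or total-count scaling, size factors set by genes of mean count 10 or more, a pseudocount of 0.1, no filter, DESeq2's Wald test, Pearson correlation, regressing out library set or marker scores, and leaving out rat 3, or rats 12 and 20. Genes were named by list, by likeness of pattern, or as passing a list test, and some genes that these rules name are not reported here. Software was R 4.3.3 and Python 3.11.15 with scipy 1.17.1.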

Additional observations from a re-analysis of the deposited data

How the results depend on the processing

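The number of adhesion genes called stayed within 1.5 times of the reported count under every alternative run for spread, hosts, ratios and the oligodendrocyte score. The reported counts there were all or 0 of those tested, so this range says little about the sizes of the effects. Outside that range were the following. With the excitatory neuron score regressed out, 9 pairs were called instead of 16. With total-count scaling, 5 of the 90 relations to marker scores were called instead of 11. Without rat 3, Nrxn2 with Lrrtm2 became a called negative pair (rho -0.476, permutation test, adjusted p = 0.0364), 2 genes differed between library sets instead of 1, the excitatory neuron score had 909 genes following it instead of 3099, and 13 partner genes instead of 36. With the library set as an added term, 388 genes followed the oligodendrocyte score instead of 198, the 9 adhesion genes again being called in 0 cases, while 8 of the 9 followed the excitatory neuron score (Nrxn2 had an edgeR adjusted p of 0.108). The causes were not tested. No named value changed its direction while called. No paired analysis was possible because the rats form 1 group. Depth limits Lrrtm4 most, since counting error made up 21.1% of its variance.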

Other observations

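For each adhesion gene, genes whose levels ran nearly parallel to it over the 27 rats were listed among genes whose mean normalized count was 50 or more, by Spearman's rho and as a description without a test. All points share libraries, scaling and depth. Nrxn2 went most closely with Camta2 (0.937), a calmodulin-binding transcription factor, Cacnb1 (0.930), a calcium channel beta subunit, and Lrrc4b (0.930), a postsynaptic ligand of LAR-type phosphatases, and it ran most against Arl6ip6 (-0.915). Nlgn2 went with Celsr2 (0.897), an adhesion receptor of the cadherin family, and Dusp8 (0.893), a MAP kinase phosphatase. Nlgn3 went with Exoc6b (0.922), of the exocyst complex, Kif3c (0.894), a kinesin, and Wfs1 (0.868), and against the ribosomal protein gene Rpl5 (-0.875).

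In the other set of genes, Nlgn1 went with Gabra4 (0.926), a GABA-A receptor subunit, Synj1 (0.919), a phosphatase of vesicle recycling, and Rasa1 (0.914), and against Ptms (-0.852). Lrrtm2 went with Chm (0.940), which serves Rab prenylation, and Clcn4 (0.925), a chloride and proton exchanger, and against Prpf40b (-0.856). Nrxn3 went with Ash1l (0.875), Lrrtm3 with Exoc6 (0.896), Lrrtm1 with the intermediate filament gene Ina (0.801), and Lrrtm4 with Erich1 (0.792). The number of genes at a rho of at least 0.8 was 186 for Nrxn2, 136 for Lrrtm2, 88 for Nlgn1, 48 for Lrrtm3, 30 each for Nrxn3 and Nlgn2, 17 for Nlgn3, 1 for Lrrtm1 and 0 for Lrrtm4. Lrrtm1 and Lrrtm4 were therefore the members with the fewest close followers, and they are also the ones in which counting error took the largest shares of the variance (16.3% and 21.1%).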
